A study of Mus musculus with 12 samples.

Results

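The claudins and Epcam are described here as a set of 10 genes of cell-cell contact in mouse dental epithelial colonies: Cldn1, Cldn3, Cldn4, Cldn6, Cldn7, Cldn8, Cldn10, Cldn12, Cldn23 and Epcam. They are 10 of the 31064 genes tested, and 11 array probes that are not controls map to them through their accessions. Of the 31064, 17178 have a gene symbol, and each accession without a symbol counts as a gene of its own. Ranks, shares of all genes and the median gene below refer to this whole set. Cldn1 has 2 probes and every other gene has 1. All 11 probes passed the filter on dim probes, and each read well above background on all 12 arrays. Most spots do so: the mean share of all non-control spots was 94.6% on wild-type, 82.5% on Bmi1 null and 80.1% on double null arrays. The set was chosen because Cldn7 and Epcam were high in double null colonies. Levels in double null colonies are therefore given as a description, without a test.

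Each of the 12 arrays measured 1 colony grown in culture from the labial cervical loop, the epithelial stem cell niche of the growing mouse incisor. Wild-type, Bmi1 null (Bmi1-/-) and double null (Bmi1-/-;Ink4a/Arf) genotypes had 4 colonies each, all on a mixed genetic background. Bmi1 is a Polycomb subunit that represses the Ink4a/Arf locus, also named Cdkn2a. The series calls the colonies biological replicates, and ages, Cre drivers and numbers of animals are not given in the labels used here. P-values therefore measure the spread between colonies. Titles number the wild-type colonies 1, 3, 4 and 5 and those of each mutant 1 to 4.

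Claudins are membrane proteins with a pair of extracellular loops that pair across neighbouring cells to form tight junction strands. The mix of claudins in an epithelium sets which ions and solutes pass between its cells. Epcam is an epithelial adhesion protein that binds Cldn7 in the membrane and keeps claudins from degradation. In the incisor, cells of the cervical loop move out of the niche, divide and become enamel-forming ameloblasts, whose layer is sealed by junctions at both ends.

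A level is a probe's processed signal on the log2 scale after subtraction of its array's 75th percentile, and a difference of 1 is a doubling of signal. Levels of different genes are not comparable, because probes differ in brightness per molecule. The wild-type arrays were compressed: the interquartile range of their log2 signal was 2.56 ± 0.06 (SD, n = 4), and it was 4.52 ± 0.18 on Bmi1 null arrays and 4.66 ± 0.42 on double null arrays. On wild-type arrays 98.4% ± 1.34 of the olfactory receptor probes read above background, against 64.7% ± 8.65 and 58.5% ± 10.1 on the mutant arrays. The median gene differed by -1.24 between Bmi1 null and wild type, by -1.39 between double null and wild type, and by -0.06 between the mutants. A relative difference below is a difference minus that median. The median spot signal spanned 109 to 210 for wild-type arrays, 82.8 to 190 for Bmi1 null arrays and 63.2 to 157 for double null arrays, while the local background was 17 to 23. Bmi1 itself read -0.27 ± 0.46 in wild-type colonies, with lower means of -2.36 ± 0.15 (Bmi1 null) and -2.52 ± 0.21 (double null). All 4 Bmi1 null arrays had Cdkn2a above background, as did 0 of 4 wild-type and 0 of 4 double null arrays.

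The sequences before the start sites of Cldn7, Epcam, Cldn1 and Cldn6 are shown because Cldn7, Epcam and Cldn1 were the members whose double null colonies lay above both other genotypes, and Cldn6 was the one that differed most among colonies of 1 genotype. Each is the 250 bases before the gene's most upstream start, on the gene's strand, from RefSeq on GRCm38.p6. They lie at chr11:69964529-69964778 (plus strand, Cldn7), chr17:87635729-87635978 (plus strand, Epcam), chr16:26371840-26372089 (minus strand, Cldn1) and chr17:23679115-23679364 (plus strand, Cldn6). Capitals mark CACCTG, the E-box read by the Snail and Zeb repressors, with its other strand CAGGTG, and GGGCGG, the GC box, with its other strand CCGCCC.
Cldn7: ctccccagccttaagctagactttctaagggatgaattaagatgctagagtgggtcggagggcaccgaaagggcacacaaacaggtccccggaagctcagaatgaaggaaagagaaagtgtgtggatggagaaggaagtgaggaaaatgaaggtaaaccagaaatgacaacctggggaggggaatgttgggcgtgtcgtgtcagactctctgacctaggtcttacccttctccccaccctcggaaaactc
Epcam: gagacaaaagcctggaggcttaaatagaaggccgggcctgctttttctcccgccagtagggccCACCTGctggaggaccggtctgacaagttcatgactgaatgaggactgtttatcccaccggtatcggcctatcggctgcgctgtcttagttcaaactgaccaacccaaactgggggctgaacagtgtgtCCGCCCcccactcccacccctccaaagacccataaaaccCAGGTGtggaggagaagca
Cldn1: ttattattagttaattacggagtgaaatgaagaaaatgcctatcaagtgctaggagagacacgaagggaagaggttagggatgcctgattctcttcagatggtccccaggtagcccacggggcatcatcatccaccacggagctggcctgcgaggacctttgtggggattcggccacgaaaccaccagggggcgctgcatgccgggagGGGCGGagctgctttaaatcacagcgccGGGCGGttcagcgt
Cldn6: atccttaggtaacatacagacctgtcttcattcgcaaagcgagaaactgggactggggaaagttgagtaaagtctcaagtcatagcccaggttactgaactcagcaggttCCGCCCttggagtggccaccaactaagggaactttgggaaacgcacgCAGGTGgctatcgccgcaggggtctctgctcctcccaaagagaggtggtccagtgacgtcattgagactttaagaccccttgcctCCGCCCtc
The Epcam window holds the E-box at 187 and 19 bases before the start and a GC box at 58. The Cldn1 window holds GC boxes at 42 and 14 bases before the start and no E-box, and the Cldn6 window has an E-box at 93 and GC boxes at 140 and 8. Neither motif lies in the Cldn7 window shown. Cldn7 has a second RefSeq start further downstream, whose window holds E-boxes at 97 and 57 bases before it and a GC box at 6.

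RefSeq gave 12 such windows for 8 of the 10 genes. The E-box was in 4 of 12 windows (Cldn4, Cldn6, Epcam and the second Cldn7 start), against 17.2% of all 32851 windows searched. GC boxes stood in 9 of 12 windows and at 1 start or more of all 8 genes, against 32.7% of all windows. Overlapping Cldn12 windows hold the same GC box, at 73 and 13 bases before their starts, so it counts more than once. The Grainyhead-like element AACCNGTT (other strand AACNGGTT) was in 0 of 12 and 1.8% of all windows, and TATAAA (other strand TTTATA) in 0 of 12 and 12.4%. No listed motif overlaps another in its fixed letters, and a match is a description of the letters and not a site.

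Cldn7 was the member that stood furthest apart in double null colonies. It read -0.28, 0.05, -0.24 and 0.51 in wild-type colonies 1, 3, 4 and 5, and -0.63, -0.31, -0.83 and -0.51 in Bmi1 null colonies 1 to 4. In double null colonies 1 to 4 it read 3.86, 2.77, 3.24 and 2.19. Every double null colony lay above every other colony. Every Bmi1 null colony lay below every wild-type colony, but by a narrow gap, from -0.31 in Bmi1 null colony 2 to -0.28 in wild-type colony 1. Of all genes, 56.3% did not overlap downward between these 2 genotypes. Double null exceeded Bmi1 null by 3.59 (SE 0.32), a 12.0-fold ratio of signals that ranked 16 of 31064 genes, and exceeded wild type by 3.0 (relative 4.40). Within the slides that held both mutants the difference was 3.55 on slide 2 and 3.86 on slide 3. In the authors' deposited table it was 3.25 against Bmi1 null and 2.61 against wild type. Bmi1 null minus wild type was -0.58, or 0.66 relative to the median gene, and its sign changed with the scaling: it was 0.35 after centring arrays on their median and -0.64 in the authors' deposited table, where its relative value was -0.56.

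Epcam was lowest in wild type and highest in double null colonies. The 4 wild-type colonies read 1.20, 2.10, 1.42 and 2.39. The Bmi1 null colonies read 3.01, 3.06, 3.20 and 1.99, and the double null colonies 4.60, 4.16, 5.13 and 4.32. The double null colonies lay above all others, whereas Bmi1 null colony 4 fell within the wild-type range. The double null mean exceeded the Bmi1 null mean by 1.73 (SE 0.34), a 3.33-fold ratio that ranked 200 of 31064 genes. Against wild type the difference was 2.77 (relative 4.17), and Bmi1 null exceeded wild type by 1.04 (relative 2.28). Within slides 2 and 3 the excess over Bmi1 null was 2.07 and 1.26. The authors' deposited table gave 1.58, 2.04 and 0.46 for the excess over Bmi1 null, the excess over wild type and the excess of Bmi1 null over wild type.

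**Figure D1:**
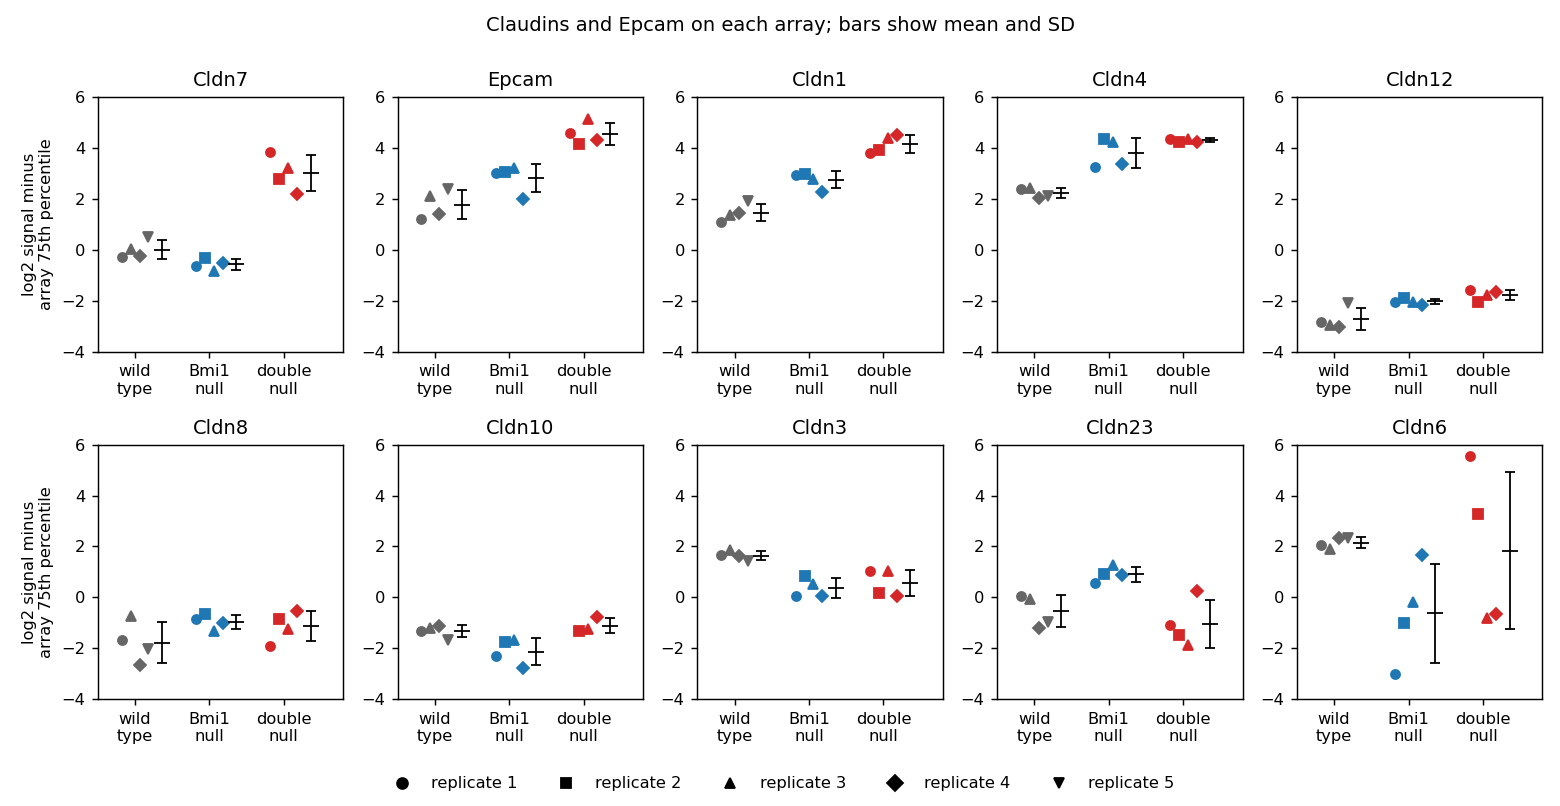
Each panel plots 1 gene on the 12 arrays, as the level on the log2 scale (y axis) by genotype (x axis), with 1 marker per colony, shaped by replicate number, and bars for the mean and SD. Cldn7 reads 2.19 to 3.86 in double null colonies and at most 0.51 elsewhere, while Cldn6 spreads from -0.80 to 5.54 among the 4 double null colonies.

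Cldn1, a barrier-forming claudin needed for the water barrier of the skin, stood at a separate level in each genotype. Wild-type colonies read 1.08, 1.39, 1.45 and 1.91. Bmi1 null colonies followed at 2.95, 3.0, 2.78 and 2.27, and double null colonies at 3.79, 3.92, 4.39 and 4.51. None of the 3 ranges overlapped. Bmi1 null exceeded wild type by 1.29 (SE 0.25, relative 2.53, limma adjusted p = 0.000375, all 4 colonies higher). It was 0.54 with an adjusted p of 0.0606 after quantile normalization, and 0.82 with an adjusted p of 0.0103 on the authors' deposited values. Double null exceeded Bmi1 null by 1.41 (SE 0.25), a 2.65-fold ratio at rank 379, and wild type by 2.70 (relative 4.09). Within slides 2 and 3 the difference between the mutants was 1.39 and 1.37. The dimmer Cldn1 probe gave means of -2.84, -1.29 and 0.20 in the same order of genotypes.

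Bmi1 null and wild type were compared by a test for the 8 members other than Cldn7 and Epcam. This contrast shares its wild-type arrays with the contrast that chose the set. Of the 8, 4 were called higher, 2 were called lower and 2 were not called (limma, adjusted p under 0.05). Among all genes 83.5% were called in this comparison, 25.2% higher and 58.3% lower, so a call by itself sets no member apart. Of the genes called 30.2% were higher, against 46.9% after median scaling and 46.7% in the authors' deposited values. Those called higher were Cldn1, Cldn4, Cldn12 and Cldn23, and those called lower were Cldn3 and Cldn10. Each of these 6 kept its sign within slide 1 and within slide 2, the slides with colonies of both genotypes. Of the same 8, colonies did not overlap for 3 that were higher and 3 that were lower, against 23.8% and 56.3% of all genes. The gap of Cldn10, 1 of those lower, was very narrow, from -1.681 in Bmi1 null colony 3 to -1.677 in wild-type colony 5. Over all 10 members the median difference was 0.76 (relative 1.99), and 8 of 10 lay above the median gene, against 7 of 10 after quantile normalization and in the authors' deposited values. Among probes above background on all 12 arrays, as all member probes were, the median gene differed by -0.31. Cldn3, Cldn6, Cldn7 and Cldn10 lay below that median, at relative -0.96, -2.46, -0.28 and -0.49. Markers of other cell types and the compression of the wild-type arrays moved with this comparison, as given below, and their part in it was not tested.

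Cldn4, a barrier-forming claudin that also binds the enterotoxin of Clostridium perfringens, was high in both mutants. Levels were 2.38, 2.41, 2.02 and 2.11 for wild type. They were 3.25, 4.36, 4.24 and 3.37 for Bmi1 null and 4.37, 4.23, 4.37 and 4.24 for double null colonies. The Bmi1 null colonies lay above all wild-type colonies, by 1.57 (SE 0.26, relative 2.81, limma adjusted p = 9.26e-05). That call was lost after quantile normalization, at 0.58 with an adjusted p of 0.076, and in the authors' deposited values, at 0.50 with an adjusted p of 0.094. Double null exceeded wild type by 2.07 (relative 3.46), or 0.92 in the authors' deposited table, and Bmi1 null by 0.50 (SE 0.26), where the colonies overlapped. The double null colonies were the most alike, with an SD of 0.08 against 0.58 in Bmi1 null colonies.

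Cldn12, a claudin without the C-terminal motif by which most claudins bind scaffold proteins, differed less. Wild-type colonies read -2.84, -2.94, -3.04 and -2.08, Bmi1 null colonies -2.03, -1.89, -2.03 and -2.16, and double null colonies -1.60, -2.06, -1.77 and -1.65. Wild-type colony 5 lay within the Bmi1 null range, and the double null colonies lay above all wild-type colonies. Bmi1 null exceeded wild type by 0.70 (SE 0.22, relative 1.94, limma adjusted p = 0.0113), a call lost with normexp background correction at 0.20 and an adjusted p of 0.242. After quantile normalization the difference was 2.43. Double null exceeded wild type by 0.95 (relative 2.35) and Bmi1 null by 0.26 (SE 0.22).

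Cldn8, known for sealing the distal nephron, was spread widely in wild type at -1.68, -0.73, -2.66 and -2.04. Bmi1 null colonies read -0.87, -0.66, -1.34 and -1.0, and double null colonies -1.90, -0.86, -1.24 and -0.54, so the ranges of all 3 genotypes overlapped. The difference between Bmi1 null and wild type, 0.81 (SE 0.39, relative 2.05), was not called (limma adjusted p = 0.0656). Without wild-type colony 3 it was 1.16 with an adjusted p of 0.00781. It was also called after median scaling (1.75, adjusted p = 0.00184), after quantile normalization (1.90, adjusted p = 0.0039) and on the authors' deposited values (1.53, adjusted p = 0.000426). Double null minus Bmi1 null was -0.17 (SE 0.39).

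Cldn10 encodes isoforms that form channels for cations or anions. Wild-type colonies read -1.32, -1.20, -1.13 and -1.68, and Bmi1 null colonies -2.31, -1.75, -1.68 and -2.78. Double null colonies 2 to 4 read -1.34, -1.23 and -0.78. The spot of double null colony 1 was an outlier by the scanner software and was left out of the fit. The array of that colony, which also gave the highest Cldn7 and Cldn6 levels, had 1336 outlier spots, against 55 to 132 on the others. Every measured double null colony lay above every Bmi1 null colony, by 1.01 in the mean (SE 0.29), a 2.02-fold ratio. It was 0.52 within slide 2 and 0.90 within slide 3, where double null colony 4 alone was measured. Bmi1 null was lower than wild type by 0.80 on the log2 scale, which is 0.44 above the median gene (SE 0.27, limma adjusted p = 0.0155). The sign of this difference turned with the scaling, to 0.13 by median scaling, 0.19 by quantile normalization and 0.15 in the authors' deposited values, none of them called.

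Cldn3, a barrier-forming claudin encoded beside Cldn4, read higher in wild type than in any mutant colony, at 1.68, 1.84, 1.62 and 1.41. Levels were 0.05, 0.85, 0.52 and 0.06 for Bmi1 null and 1.02, 0.16, 1.02 and 0.07 for double null colonies, with all mutant colonies below all wild-type ones. Bmi1 null was lower by 1.27 (SE 0.27, limma adjusted p = 0.000863), which is the shift of the median gene (relative -0.03). After median scaling the difference was -0.33 with an adjusted p of 0.213. The authors' deposited values gave -2.05 (relative -1.97), so its place beside the median gene held only for some scalings. Double null differed from Bmi1 null by 0.20 (SE 0.27).

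Cldn23, a claudin of differentiated gut epithelium, ran opposite to Cldn7 between the mutants. Wild-type colonies read 0.04, -0.06, -1.19 and -0.97. Bmi1 null colonies read 0.55, 0.91, 1.29 and 0.88, against -1.10, -1.50, -1.87 and 0.26 for double null colonies. All Bmi1 null colonies lay above all other colonies. Bmi1 null exceeded wild type by 1.45 (SE 0.43, relative 2.69, limma adjusted p = 0.00666), and with slide as a block the difference was 1.06 with an adjusted p of 0.0557. Double null minus Bmi1 null was -1.96 (SE 0.43), a 3.88-fold ratio of Bmi1 null over double null, at rank 30765 of 31064 from the highest rise down. Double null colony 4 stood highest of its genotype, and without it the difference was -2.39.

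**Figure D2:**
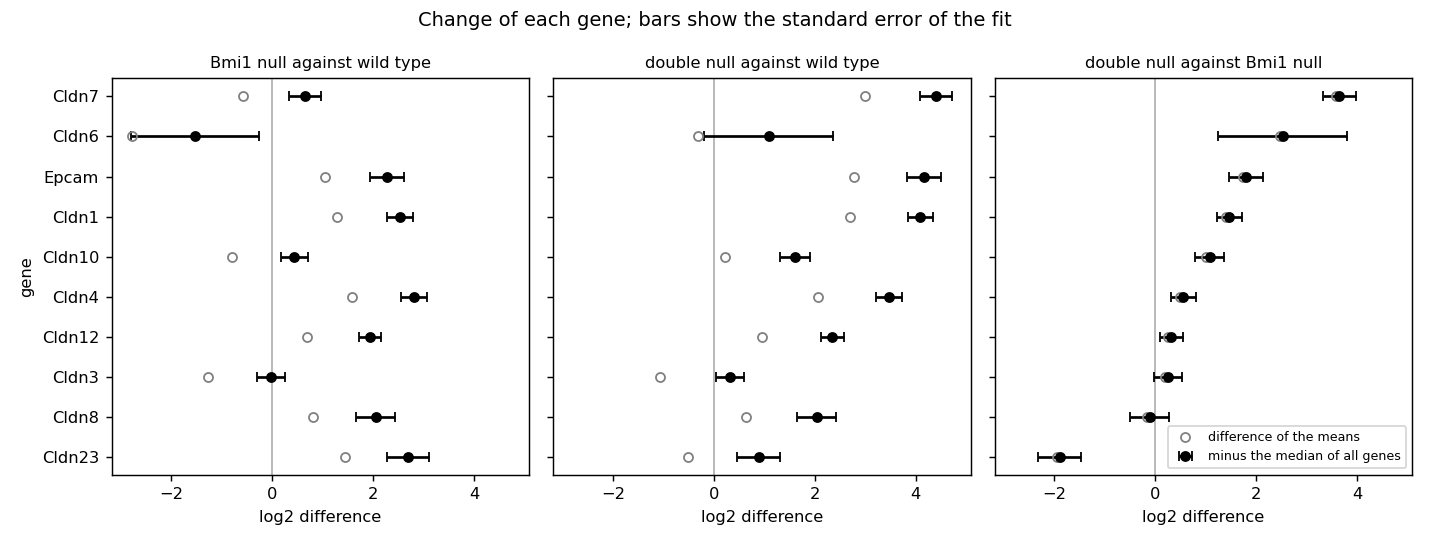
Log2 differences of the 10 genes (y axis) in the 3 comparisons (panels), as the difference of the means (open circles) and after subtraction of the median of all genes (filled circles, with the standard error of the fit). In the comparison of the mutants the values run from -1.96 for Cldn23 to 3.59 for Cldn7, and open and filled circles nearly coincide because the median gene differed by -0.06.

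Cldn6, a claudin of embryonic epithelia and pluripotent cells, was even in wild type and varied widely among the mutant colonies. Wild-type colonies read 2.06, 1.89, 2.31 and 2.31. Bmi1 null colonies 1 to 4 read -3.0, -1.03, -0.16 and 1.68, and double null colonies read 5.54, 3.27, -0.80 and -0.65. Its SD was 0.21 among wild-type, 1.94 among Bmi1 null and 3.1 among double null colonies. Double null colonies 1 and 4, at 5.54 and -0.65, were hybridised on the same slide. All Bmi1 null colonies lay below all wild-type colonies, yet the difference of -2.77 (SE 1.27, relative -1.53) was not called (limma adjusted p = 0.0587). It was called without Bmi1 null colony 4 (-3.54, adjusted p = 0.0249), after quantile normalization (-3.33, adjusted p = 0.0178), on the authors' deposited values (-3.41, adjusted p = 0.0151) and in a fit of the 2 genotypes alone (adjusted p = 0.00579). Keeping only probes above background on all 12 arrays gave an adjusted p of 0.0437. Double null minus Bmi1 null was 2.46 (SE 1.27) with overlapping colonies, and 1.23 without double null colony 1. It was 0.22 within slide 2 and 2.61 within slide 3. Double null minus wild type was -0.31 (relative 1.09, or -1.09 in the authors' deposited values), with 0.57 without double null colony 3, -1.54 without colony 1 and -1.65 with slide as a block.

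Colonies of the mutants were then set side by side over all members. Between double null and Bmi1 null 4 members did not overlap upward (Cldn1, Cldn7, Cldn10 and Epcam) and 1 did not overlap downward (Cldn23), while 5 overlapped. Among all genes 6.6% did not overlap upward and 7.18% downward. Between double null and wild type 5 members did not overlap upward (Cldn1, Cldn4, Cldn7, Cldn12 and Epcam) and 1 did not overlap downward (Cldn3), against 24.7% and 56.6% of all genes. For Cldn12 the gap was narrow, from -2.08 in wild-type colony 5 to -2.06 in double null colony 2. The members were chosen on these double null levels, so the counts are a description. Relative to the median gene all 10 members were higher in double null than in wild-type colonies, with a median of 2.19, but 8 of 10 were after quantile normalization and in the authors' deposited values, where Cldn3 and Cldn6 lay below. Among probes above background on all 12 arrays, Cldn3 and Cldn23 lay below the median gene, at relative -0.70 and -0.14. In the comparison of the mutants 8 of 10 were higher in double null colonies, with a relative median of 0.82.

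By RefSeq gene order some claudins lie directly beside another claudin: Cldn6 beside Cldn9 on chromosome 17, Cldn8 beside Cldn17 and Cldn1 beside Cldn16 on chromosome 16, and Cldn4 beside Cldn3 on chromosome 5. Cldn9 read 1.05, 0.57, 1.08 and 0.65 in the wild-type colonies. Bmi1 null colonies gave -0.72, -0.51, -0.95 and -0.02 for it, and double null colonies 1.53, 1.02, -0.94 and -1.17. Among double null colonies, 1 and 2 were high for both Cldn6 and Cldn9, and 3 and 4 were low for both. Bmi1 null colony 4 was the highest of its genotype for both. Bmi1 null colony 3 was the lowest of its genotype for Cldn9, at -0.95, but not for Cldn6, at -0.16. Cldn17 read -1.70, -1.95 and -2.28 in double null colonies 1 to 3 and 1.84 in colony 4, which was also the highest double null colony for Cldn8. Between wild type and the mutants Cldn3 and Cldn4 ran opposite ways, as Cldn3 was highest and Cldn4 lowest in wild type. Among Bmi1 null colonies they ran the same way, with both highest in colony 2 and lowest in colony 1. Cldn16 ranged from -6.52 to -2.29 over the 12 arrays, read above background on 10 of them, and showed no step like that of Cldn1.

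**Figure D3:**
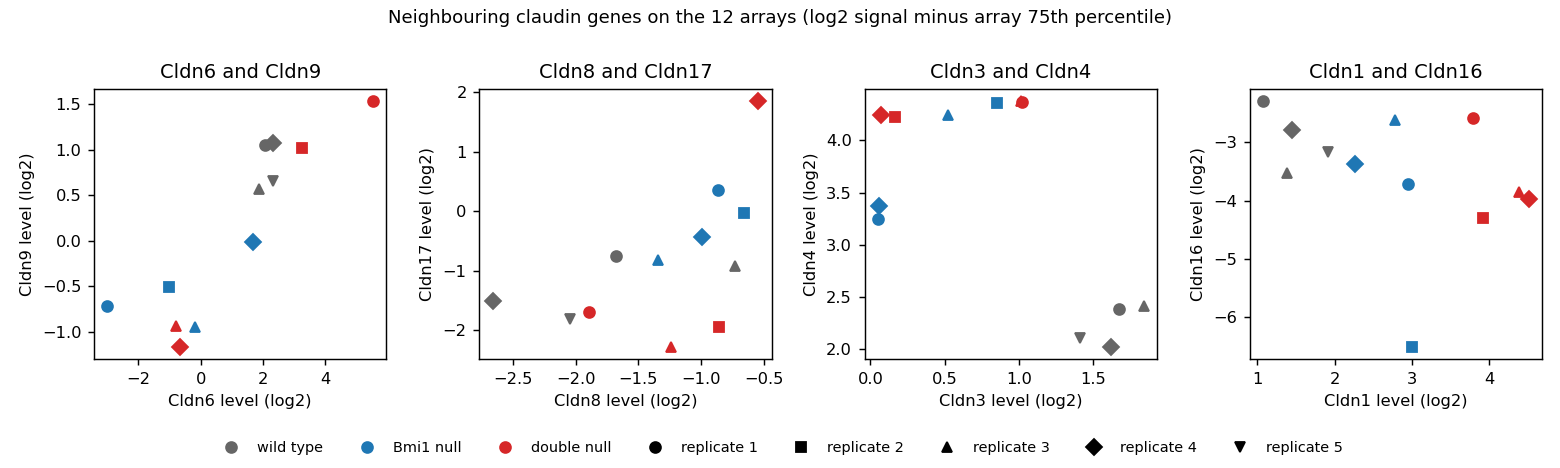
Each panel plots the levels of a pair of adjacent claudin genes against each other (log2 scale, both axes), with 1 point per array, coloured by genotype and shaped by replicate number. Double null colonies 1 and 2 have Cldn6 at 5.54 and 3.27 and Cldn9 at 1.53 and 1.02, and colonies 3 and 4 have both below 0.

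Claudins outside the set were mostly lower in both mutants than in wild type. Of 15 other claudins 12 were measured, and in Bmi1 null against wild type 10 fell, 0 rose and 2 were not called, with a median of -2.10 (relative -0.86). In double null against wild type 9 fell, 0 rose and 3 were not called (median -2.06, relative -0.66). Across all genes 85.4% were called in the latter comparison, 25.7% higher and 59.7% lower. The largest falls were of Cldn13 (-4.10 with SE 0.60 for Bmi1 null, -5.0 for double null), Cldn2, a claudin that forms cation channels (-3.25, SE 0.44, in Bmi1 null), Cldn18 (-3.03 for Bmi1 null, and -3.11 for double null, where colony 1 was missing) and Cldn15 (-3.05 in double null). Both medians stayed below that of all genes under median scaling, quantile normalization, normexp correction and the authors' deposited values. Between the mutants 0 of 12 were called by limma, with 1 at an unadjusted p under 0.05. How the set differed from these claudins was not tested, since its members were chosen with results known.

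Among partners of claudins in the tight junction more rose than fell in both mutants against wild type. Of 22 measured genes 11 rose, 6 fell and 5 were not called in Bmi1 null (relative median 1.65), and 11 rose, 5 fell and 6 were not called in double null colonies (relative median 2.00). Examples are F11r, the junctional adhesion molecule JAM-A (2.60 for Bmi1 null, 2.50 for double null, SE 0.31), the scaffold Tjp1, or ZO-1 (2.58 and 2.28, SE 0.21), and Lsr, which marks tricellular contacts (2.42 in double null). Between the mutants, where 7.43% of all genes were called (2.81% higher and 4.62% lower), 2 of 22 rose, 1 fell and 19 were not called. Marveld2, or tricellulin, the strand protein of corners where cells meet, rose by 1.67 (SE 0.33, limma adjusted p = 0.00992). Cgnl1, or paracingulin, rose by 1.08 (SE 0.27, adjusted p = 0.0288), and the scaffold Magi3 fell by 1.15 (SE 0.32, adjusted p = 0.0450).

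Most of the 10 measured genes whose products bind or cut Epcam, or regulate those that do, were higher in the mutants. In Bmi1 null colonies 7 rose, 2 fell and 1 was not called (relative median 2.42), and in double null colonies 7 rose, 1 fell and 2 were not called (relative median 2.37). Fewer rose under 2 of the alternatives: for Bmi1 null 5 of 10 after quantile normalization and 4 of 10 in the authors' deposited values, and for double null colonies 2 of 10 in each. St14, or matriptase, a surface protease that cuts Epcam, rose by 2.11 (SE 0.22) from wild type to Bmi1 null. Spint1, its inhibitor, rose by 2.32 (SE 0.25) there and by 1.99 in double null colonies. The tetraspanin Tspan8 fell by 2.21 and 2.15 (SE 0.28). Between the mutants Psen2, a catalytic subunit of gamma-secretase, rose by 0.80 (SE 0.21, limma adjusted p = 0.0398) and St14 fell by 0.79 (SE 0.22, adjusted p = 0.0463), while 8 of 10 were not called.

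Adherens junction genes, which encode the cadherin and nectin contacts below the tight junction, were higher in the mutants too. In Bmi1 null colonies 9 of 12 rose and 0 fell (relative median 2.82), and in double null colonies 10 of 12 rose and 1 fell (relative median 2.95). Nectin3 (2.13 for Bmi1 null, 1.86 for double null, SE 0.32), vinculin (Vcl, 1.98 and 2.40, SE 0.22), P-cadherin (Cdh3, 1.99 in Bmi1 null) and p120-catenin (Ctnnd1, 2.52 in double null) had the largest changes. Between the mutants only Ctnnb1, or beta-catenin, was called, higher by 0.79 in double null (SE 0.20, limma adjusted p = 0.0294).

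Regulators of the epithelial state split in direction. For Bmi1 null against wild type 8 of 15 rose and 4 fell (relative median 1.98), and for double null 9 rose and 4 fell (relative median 2.32). Trp63, the basal epithelial transcription factor p63, was higher by 2.57 (Bmi1 null) and 2.64 (double null, SE 0.20), and Klf4 by 2.18 in double null. Zeb2, a repressor of epithelial genes that reads the E-box shown above, was lower than wild type by 2.47 in Bmi1 null (SE 0.19, relative -1.23). Other readers of that E-box, picked after their values were seen, did not move as one. Snai2 rose over wild type by 2.06 in Bmi1 null (SE 0.28, limma adjusted p = 2.07e-05) and its double null excess was 1.39 (adjusted p = 0.000471). Zeb1 was lower than wild type by 1.43 in Bmi1 null (SE 0.25, relative -0.19, adjusted p = 0.000179), a call lost after median scaling, while its double null difference was -1.76 (adjusted p = 2.95e-05). Zeb2 was the 1 regulator of 15 called between the mutants, where it was higher by 0.90 in double null (SE 0.21, limma adjusted p = 0.0233, double null colony 1 missing).

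The 7 calls between the mutants in these lists were sensitive to the model. With slide as a block, and in a fit of the 2 mutant genotypes alone, all 7 lost their call, with adjusted p from 0.0546 to 0.271. Marveld2 kept its call under 17 of 19 alternatives, Zeb2 under 12, Cgnl1 under 10, Psen2 and Ctnnb1 under 9, Magi3 under 7 and St14 under 5. All 7 kept their direction under all 19.

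**Figure D4:**
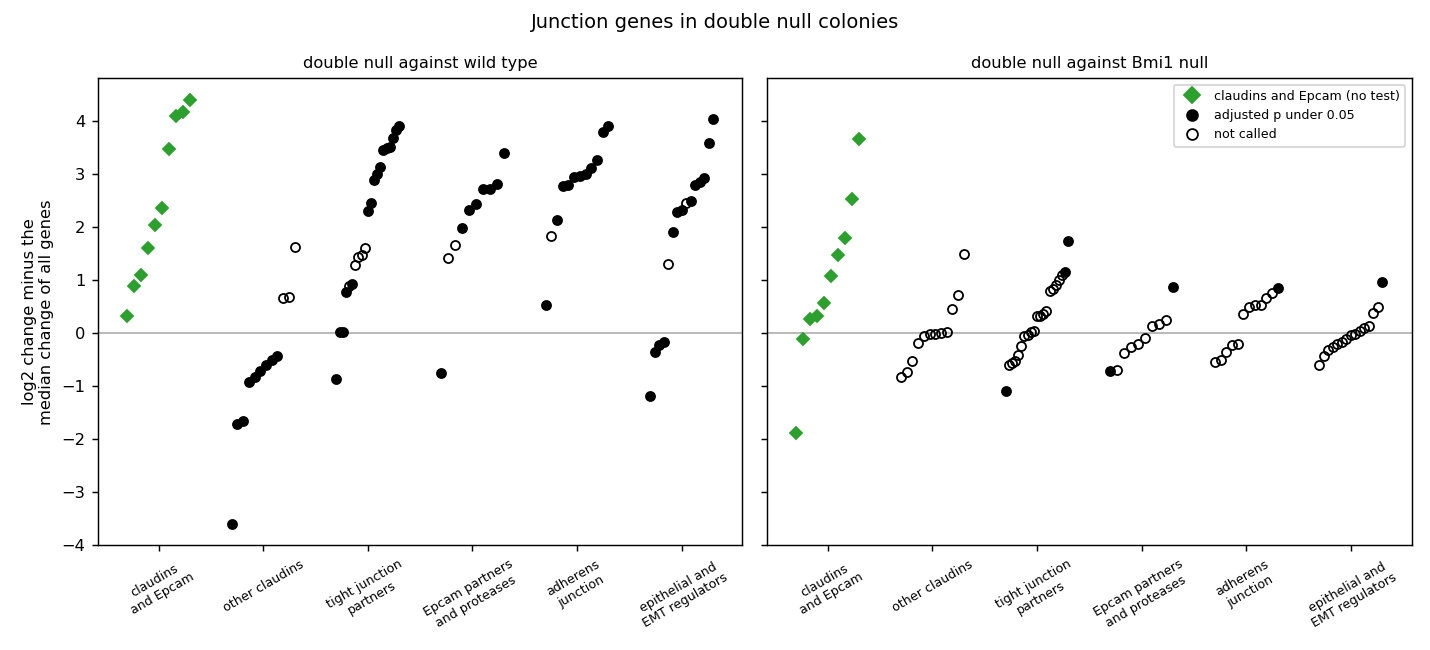
Log2 changes minus the median change of all genes (y axis) for each measured gene of 6 lists (x axis), in double null against wild type (left) and against Bmi1 null (right), with filled circles for genes called by limma and open circles for the rest, and diamonds without a test for the set. The other claudins lie mostly below 0 in the left panel, and in the right panel Cldn7, at 3.65, lies above every gene of the lists.

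Genes whose centred profile over the 12 arrays lay nearest to Cldn7 and to Epcam were found by the root mean square difference. For Cldn7 these included Lgi2 (0.74), Ptpru (0.75) and Mme (0.76), in log2 units. Lgi2, a secreted leucine-rich repeat protein, had a mean of -1.36 in wild-type colonies, -2.48 in Bmi1 null colonies and 1.02 in double null colonies. For Epcam the nearest were Prdx4 (0.28), Idh2 (0.30), Farp1 (0.32), Fstl1 (0.35) and Myg1 (0.35). Cldn1 followed at rank 6 of all genes with 0.35, so Cldn1 ran closer to Epcam than Cldn7 did, at 0.95. Among members Epcam came nearest to Cldn7, at rank 41. Both were high in the double null colonies that chose the set, so their nearness is a description.

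Markers of other cell types were measured on the same arrays. All 10 epithelial markers read above background on all 12 arrays, and their summed signal (in units of the array's 75th percentile) was 133 to 412 in wild type. It was 447 to 635 for Bmi1 null and 430 to 825 for double null colonies. These sums add signals that are not logged, so the brightest markers weigh most. In wild type the mean level was 7.44 for Krt14 and 4.95 for Krt5, the brightest of the 10. Between the mutants 0 of 10 epithelial markers were called by limma, with 2 at an unadjusted p under 0.05, and 7 of 10 in Bmi1 null and 8 of 10 in double null colonies were called higher than in wild type. Among all genes 25.2% were called higher and 58.3% lower in Bmi1 null, and 25.7% and 59.7% in double null colonies. The epithelial counts were 6 and 5 after quantile normalization and 6 and 6 in the authors' deposited values, but 8 and 9 after median scaling. With slide as a block they were 7 and 5. The immune sum was 8.36 to 10.4 in wild type, against 1.01 to 1.54 and 0.863 to 1.35 in the mutants, with 9 of 9 genes called lower in each. The glial and melanocyte sum was 12.9 to 15.3 against 3.47 to 4.41 and 3.07 to 4.6, with 8 of 8 lower and Tyrp1 above background on none of the mutant arrays. The endothelial sum was 4.42 to 5.74, 2.65 to 4.5 and 3.38 to 4.98, with 7 of 8 lower and 1 higher in each mutant. The 1 higher was Egfl7, the brightest of the 8 in both mutants, at mean levels of 1.16 and 1.55. Their part in the differences from wild type was not tested, and in bulk RNA fewer cells of a type and less RNA per cell cannot be told apart. The part of the compressed wild-type arrays in these marker differences was not tested either. Olfactory receptor probes read above background for 98.4% on wild-type arrays, against 64.7% on Bmi1 null and 58.5% on double null arrays.

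Mesenchymal markers set 1 colony apart. Their sum was 15.2 to 17.7 in wild type and 6.10 to 11.6 in Bmi1 null colonies. Double null colonies spanned 6.50 to 42.3, where colony 4 gave the 42.3. Of 14 genes 8 fell and 1 rose from wild type to Bmi1 null. For double null colonies 7 fell and 1 rose, and 9 fell without colony 4. The shares that fell were near or below those of all genes, 58.3% and 59.7%, and the relative medians were -0.28 and 0.20. Double null colony 4 was also the lowest of its genotype for Cldn3 and Cldn7. It was the highest of the measured double null colonies for Cldn1, Cldn8, Cldn10, Cldn17 and Cldn23. Without it Cldn7 exceeded Bmi1 null by 3.86, against 3.59 with it.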

How the data were processed

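RNA from 12 colonies was amplified (Sigma whole transcriptome chemistry), Cy3-labelled and measured on 1-colour Agilent mouse arrays, per the labels' protocols. The authors extracted each spot's processed signal, a background-subtracted intensity, with Feature Extraction 10.7.3.1, per the file headers. The authors' deposited value table is on a log2 scale, since its columns track the log2 spot signal (r 0.992 to 1.00, column medians 7.21 to 7.24), with a normalization not given in the sources used here. The table was an alternative input.

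The processed signal was log2-transformed and each array's 75th percentile subtracted. Control spots and spots marked as outliers were left out. Probes well above background on at least 3 of 4 arrays of 1 genotype or more were kept (39338), and the brightest probe stood for a gene. Accessions were matched without versions to RefSeq (GRCm38.p6), which gave 1 symbol to 24844 of 41174 probes, several to 0 and none to 16330. Genotype means were fitted over all 12 arrays with lmFit and eBayes (limma 3.58.1, R 4.3.3) at 9 residual degrees of freedom, with Benjamini-Hochberg adjustment over 31064 genes and calls at an adjusted p under 0.05. The script was tested on simulated data. No 2 arrays held the same values.

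The members and gene lists were chosen with earlier results of these data known. Named were all members, the genes targeted, up to 3 called genes of each junction list per comparison with the largest change, and the 5 genes nearest in profile to Cldn7 and to Epcam. Some genes this rule names are not reported here. Snai1, which the rule also names, was above background on 0 of 4 double null arrays and is given no fold. Crb3, also named by it, was above background on 2 of 4 wild-type arrays and was 2.58 higher in Bmi1 null, a call lost with normexp correction. Cldn9, Cldn16 and Cldn17 are given as neighbours of members, a choice made after their values were seen. Replicate numbers are shared between genotypes, but arrays of the same number did not deviate together: r ranged from -0.141 to 0.216. Alternatives covered scaling, background correction, the authors' table, the filter, the probe rule, slide and replicate blocks, the samples in the fit and each array left out. Normexp correction used the median spot signal because the files hold no mean signal, as chosen after seeing the data. The array headers name build mm9, so no probe coordinates are given. The number of arrays limits the precision.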

Additional observations from a re-analysis of the deposited data

Results flagged for a closer look

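In Bmi1 null colonies Epcam read 1.99 in colony 4 against 3.01 to 3.20 in the other 3, a gap that took up most of the group's range. In double null colonies Cldn17 read 1.84 in colony 4 against -2.28 to -1.70 in the other 3. Both stood apart by Dixon's test at the 95% level, out of 40 groups of 4 arrays examined, and chance gives such a gap in about 1 in 20 groups. Double null colony 4 also had the highest mesenchymal sum, at 42.3.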

How the results depend on the processing

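The comparisons with wild type depended on the scaling. The difference of Cldn7 between Bmi1 null and wild type, -0.58, was 0.35 after median scaling, and that of Cldn10, -0.80, was 0.13 after median scaling, 0.19 after quantile normalization and 0.15 with the authors' table. The share of called genes that were higher in double null than in wild type was 30.1%, but 45.8% after median scaling, 46.4% after quantile normalization, 40.6% with normexp correction and 46.8% in the authors' table. In Bmi1 null it was 30.2%, but 46.7% after quantile normalization, and it was 43.7% and 43.6% in the 2 mutants with probes above background on all 12 arrays. Of the 2308 genes called between the mutants, 37.8% were higher in double null colonies, against 58.7% with normexp correction and 48.8% in the authors' table. That count was 1405 after quantile normalization, 1087 with normexp correction, 270 with slide as a block and 936 in a fit of the 2 mutants alone. Leaving out 1 array at a time gave 1382 (without double null replicate 3) to 2702, with 1472 without Bmi1 null replicate 4. The counts against wild type stayed within 1.5 times theirs in every alternative, at 24808 to 25742 for Bmi1 null and 25572 to 26521 for double null when 1 array was left out. With the replicate block 1348 genes were called between the mutants, and same-numbered arrays share only a number. The double null excess of Cldn7 over Bmi1 null was 3.19 to 3.86, that of Epcam 1.26 to 2.07 and that of Cldn1 1.24 to 1.53 over all alternatives. All 11 probes of the members were above background on all 12 arrays, as were a mean of 80.1% (double null) to 94.6% (wild type) of all non-control spots.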
